A study of Mus musculus with 2 samples.

Results

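The genes described here encode the phagocyte NADPH oxidase, the NOX2 enzyme with which phagocytes make superoxide. They are Cybb, Cyba, Ncf1, Ncf4 and Rac2, 5 genes taken by name from the 32285 genes counted in 2 single-cell libraries of AT3 tumors. AT3 is a mouse breast cancer cell line, and 500000 cells were injected into the mammary fat pad of each mouse. The WT library came from Pgd fl/fl mice and the 6PGDKO library from Pgd fl/fl mice that carried LysM-Cre, so both genotypes held the floxed Pgd alleles. LysM-Cre acts in cells of the myeloid lineage, chiefly in macrophages and neutrophils, and removes Pgd, the gene of the NADPH-producing pentose phosphate enzyme 6PGD, there. Mice were 6 to 12 weeks old, tumors of 10 mice per genotype were pooled, and they were harvested on day 30 after injection. With 1 pooled library per genotype there were no replicates, so no p-value is given between genotypes, and every interval below is a 95% interval that covers counting error only, not the spread between mice.

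NOX2 reduces oxygen to superoxide with electrons taken from NADPH. Its catalytic core, cytochrome b558, sits in the membrane as gp91phox, encoded by Cybb, and p22phox, encoded by Cyba. In a resting phagocyte the organizer p47phox, encoded by Ncf1, and p40phox, encoded by Ncf4, stay in the cytosol, and upon activation they move to the core with the small GTPase Rac2, the Rac that is largely restricted to blood cells. In tumors, reactive oxygen made by myeloid cells is known for its part in suppressing T cells. The study removed Pgd to learn what 6PGD does in suppressive myeloid cells of the tumor. 6PGD is among several enzymes that make NADPH in the cytosol, and whether NOX2 draws on its NADPH here was not tested.

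The 5 genes lie on 4 chromosomes of GRCm38.p6, the RefSeq release of the mm10 build used for the counts. Cybb spans chrX:9435252-9487766, Cyba chr8:122424771-122432940, Ncf1 chr5:134220053-134229628, Ncf4 chr15:78244164-78262582 and Rac2 chr15:78559169-78572783. RefSeq promoter sequences were at hand for 3 of the 5 genes, and the 250 bases before each start site are given because they are what the genes of the membrane core and the organizer have, or do not have, in common in front of their start. The Cybb window is chrX:9469325-9469574 on the minus strand, before a start site that lies inside the annotated span of the gene. The Cyba window is chr8:122432941-122433190 and the Ncf1 window chr5:134229626-134229875, both on the minus strand. Capitals mark the letters CCAAT and the core of an interferon response element, written as TTTC, any 2 bases and TTTC, both searched on either strand.
Cybb: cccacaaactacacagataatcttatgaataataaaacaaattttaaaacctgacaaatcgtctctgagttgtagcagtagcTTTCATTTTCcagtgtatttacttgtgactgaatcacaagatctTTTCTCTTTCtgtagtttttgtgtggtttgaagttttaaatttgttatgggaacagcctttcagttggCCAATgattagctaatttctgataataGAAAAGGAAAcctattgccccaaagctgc
Cyba: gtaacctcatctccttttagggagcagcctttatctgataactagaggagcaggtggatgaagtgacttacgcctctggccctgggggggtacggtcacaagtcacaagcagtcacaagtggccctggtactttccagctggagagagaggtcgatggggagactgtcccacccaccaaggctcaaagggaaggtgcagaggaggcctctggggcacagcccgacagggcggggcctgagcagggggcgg
Ncf1: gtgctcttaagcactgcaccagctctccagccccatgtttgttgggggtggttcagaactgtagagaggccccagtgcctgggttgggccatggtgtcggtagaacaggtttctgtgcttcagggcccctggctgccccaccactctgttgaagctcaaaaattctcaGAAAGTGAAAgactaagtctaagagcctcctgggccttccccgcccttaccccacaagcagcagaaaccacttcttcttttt
The Cybb window held the interferon element letters at 3 places, whose first bases lay at -168, -124 and -29 from the start site. The Ncf1 window held them once, at -82, and the Cyba window did not hold them. In windows of 300 bases, which add the 50 bases after the start, 3.49% of 27025 RefSeq promoters held these letters at least once, so 2 of the 3 subunit promoters had a sequence that few promoters had. The CCAAT letters stood at -56 in Cybb alone and in 37.9% of all promoters. The letters GAGGAA, a core of the sites of PU.1, the myeloid transcription factor encoded by Spi1, stood after the Cybb start at 10 and in 28.3% of all promoters. None of the matches overlapped another, and a match describes letters and not a bound site.

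The libraries held 3728 WT and 3014 6PGDKO barcodes, none of them shared, of which 3565 and 2798 passed the filter on genes and mitochondrial transcripts, both more cells than the study states for its own analysis. Cells of both genotypes carried oligo tags and were pooled before capture. Median depth was 5554 UMIs (unique molecular identifiers, 1 per captured transcript) per WT cell and 7926 per 6PGDKO cell. The cells were clustered without the subunit genes and named from marker genes, so each named class is a group of cells like that type, and 3 of 20 clusters keep their number because they did not meet the naming rules. Of these, cluster 1 had all 9 T cell markers and cluster 18 all 11 macrophage markers in at least 25% of cells. Both had more markers of another list among their leading genes. The class named classical monocytes had 5 of its 9 markers in at least 25% of cells. Cd209a and Ccl17, on the marker list of type 2 and monocyte-derived dendritic cells, were among its leading genes. The labels describe the sorted cells both as CD45+ and as CD11b+, and both libraries held T and B cells and some cells with keratin transcripts. Pgd itself stood at 104 CPM (the UMIs of a gene per 1000000 UMIs of the class) in WT and 30.6 in 6PGDKO macrophages, at 76.5 and 29.9 in monocytes, and at 25.7 and 30.7 in T cells. Pgd was thus no lower in T cells, which do not express LysM-Cre, and 6PGDKO macrophages and monocytes showed about the T cell level. It was lower, however, in epithelial tumor cells, at 56.2 and 33.0 CPM with a log2 ratio of -0.77 (-1.39 to -0.14), and in cluster 8, at 47.2 and 31.6 CPM with -0.58 (-1.11 to -0.05). The share of cells also differed, with 569 B cells in WT and 35 in 6PGDKO, and with 130 and 335 monocytes, so values over all cells mix level and composition.

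Transcripts of the catalytic subunit were held by few cell classes. Macrophages gave 79.6% of all Cybb UMIs in the WT library and 73.1% in the 6PGDKO library. Monocytes gave 10.1% and 19.8%, and WT B cells gave 6.45%. The remaining UMIs were spread thinly, so that macrophages and monocytes held most Cybb transcripts in both genotypes. Cyba was less restricted, with 52.7% of its WT UMIs and 46.6% of its 6PGDKO UMIs in macrophages and 18.3% and 14.9% in T cells. For Ncf1, macrophages held 54.9% and 53.5%. Ncf4 lay between these patterns, with 48.9% and 41.7% in macrophages. Rac2 was the exception, since T cells held 42.4% and 36.0% of its UMIs, a cluster led by Ly6c2, Cd8b1 and Ccl5 (cluster 1) 19.4% and 14.3%, and macrophages 16.5% and 26.6%. The shares follow cell numbers as well as levels, which are given next.

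**Figure D1:**
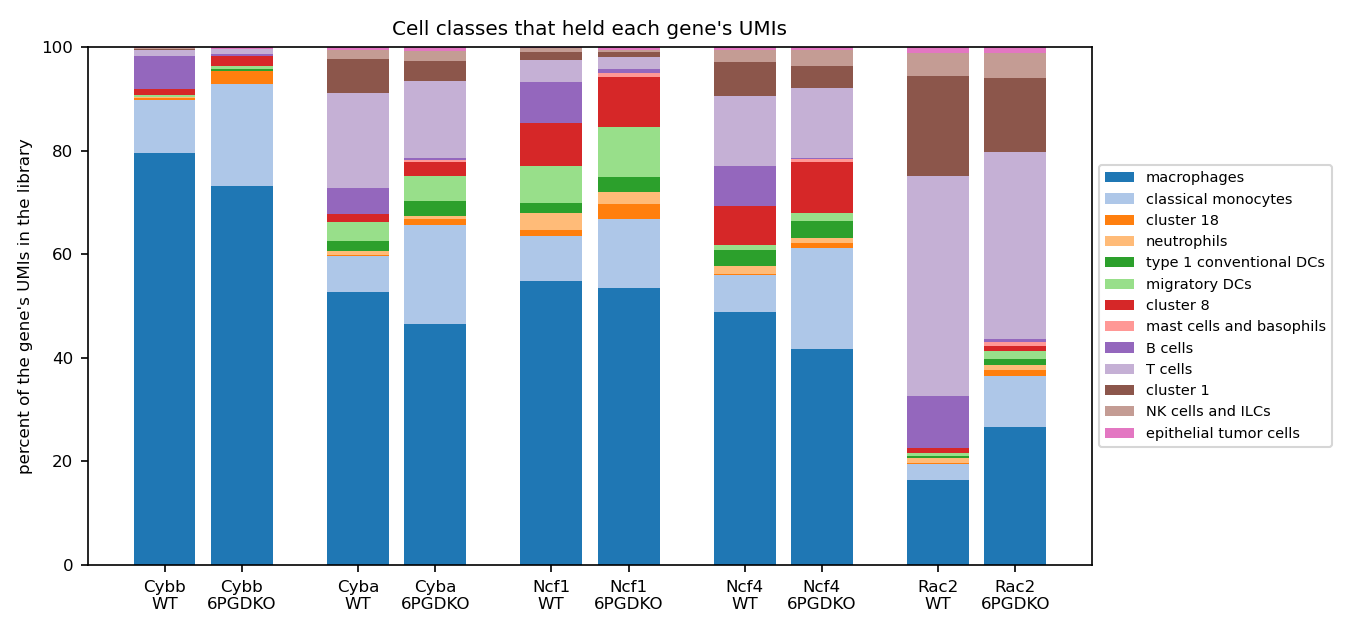
Share of each gene's UMIs (vertical axis, percent of the gene's UMIs in that library) held by each cell class, with 1 stacked bar per gene and library. Macrophages filled 79.6% of the WT Cybb bar and 16.5% of the WT Rac2 bar, where T cells held 42.4%.

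Cybb stood highest in macrophages, at 747 CPM (interval 729 to 765) in WT and 732 CPM (715 to 748) in 6PGDKO cells. Classical monocytes followed in WT with 640 CPM (598 to 684). In 6PGDKO monocytes the level was 512 CPM (490 to 535). A cluster of 15 WT and 52 6PGDKO cells led by Retnla, Fn1 and Lyz1 (cluster 18) had 343 and 625 CPM, and its WT interval overlapped that of B cells. B cells had 239 CPM in WT and 204 CPM in 6PGDKO, more than any other non-myeloid class in either library. Neutrophils, the classical source of the oxidative burst, had only 10 and 5 Cybb UMIs, which is 68.7 CPM (32.9 to 126) and 29.0 CPM (9.42 to 67.7). From neutrophils downward the WT intervals overlapped from neighbour to neighbour, through migratory dendritic cells (DCs), NK cells, epithelial tumor cells, T cells and type 1 conventional DCs, down to cluster 1 with 5.54 CPM.

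Cyba was present in every class. In WT it ran from 1439 CPM in macrophages through 1273 in monocytes, 1167 in neutrophils and 1138 in migratory DCs to 188 CPM in epithelial tumor cells. The levels of WT monocytes, neutrophils and migratory DCs did not differ beyond their intervals. In the 6PGDKO library monocytes, with 1278 CPM, stood above macrophages, with 1207 CPM, and the intervals did not overlap. T cells held 662 and 768 CPM, which is not a background level, since epithelial tumor cells had 188 and 170.

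The cytosolic subunits Ncf1 and Ncf4 were highest in neutrophils in WT. Ncf1 reached 481 CPM (375 to 607) in WT neutrophils and 371 CPM (286 to 474) in 6PGDKO neutrophils. Macrophages had 129 and 144 CPM of it, and T cells had 13.4 and 12.7 CPM, near the 7.02 and 13.1 CPM of epithelial tumor cells. In both libraries Ncf1 was higher in every myeloid and DC class and in B cells than in T cells, cluster 1, NK cells and epithelial tumor cells, with intervals that did not overlap. Ncf4 stood at 330 CPM (243 to 437) in WT neutrophils, and there the next class, cluster 8, had 192 CPM. Cluster 8 was led by H2-M5, Tcea3, Epcam, Cldn1 and Cd207, and its 102 WT and 146 6PGDKO cells were left unnamed. Unlike Ncf1, Ncf4 was well above the epithelial level of 19.9 and 18.4 CPM in T cells, with 63.8 and 94.9 CPM. Migratory DCs showed the opposite, with 195 and 217 CPM of Ncf1 and only 37.0 and 49.7 CPM of Ncf4.

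Rac2 was high in lymphoid classes, in neutrophils and in mast cells. Cluster 1 had 693 CPM in WT and 707 in 6PGDKO, NK cells and innate lymphoid cells (ILCs) 662 and 571, and T cells 636 and 643. Neutrophils, with 597 and 493 CPM, overlapped the T cell interval in WT. B cells followed with 451 and 439 CPM. Macrophages had 187 and 239 CPM and monocytes 231 and 232 CPM. Rac1, the Rac found in nearly all cells, was instead higher in macrophages, with 319 and 348 CPM, than in cluster 1, with 171 and 191 CPM. A group of 15 mast cells and basophils, seen in the 6PGDKO library only, had 683 CPM of Rac2, above the 643 CPM of T cells but within overlapping intervals, and 3 UMIs of Cybb.

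**Figure D2:**
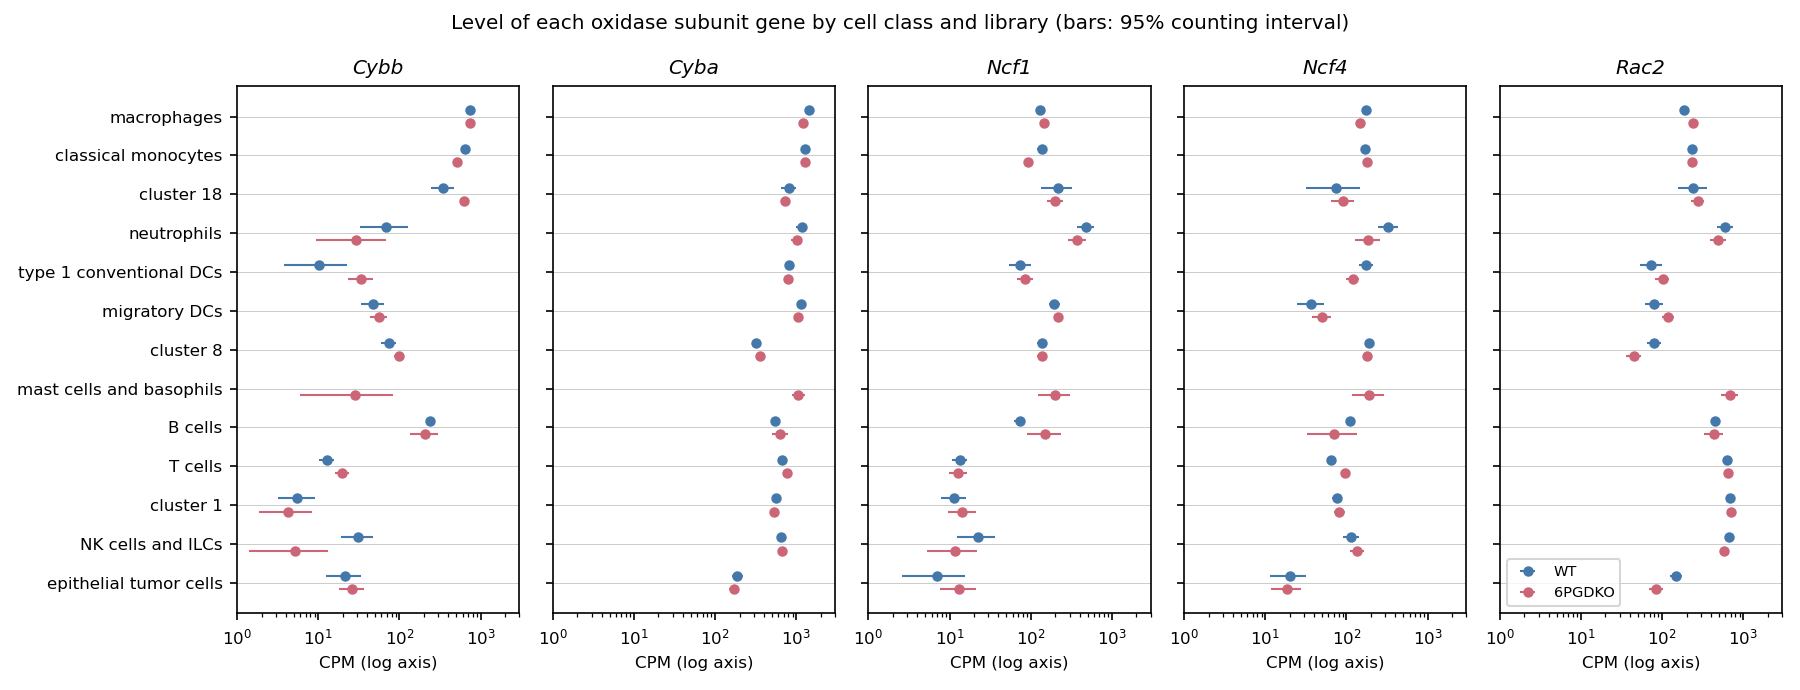
Level of each subunit gene (horizontal axis, CPM, log axis) in 13 cell classes, with WT and 6PGDKO points and 95% counting intervals. Cybb falls from 747 CPM in WT macrophages to 5.54 CPM in WT cluster 1, whereas Cyba stays between 188 and 1439 CPM in WT, and Rac2 is highest in cluster 1, at 693 and 707 CPM.

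Macrophages, 734 WT and 724 6PGDKO cells in 3 clusters, carried the comparison of genotypes with the most transcripts. None of the 5 genes was 1.5-fold higher or lower there, while 7.65% of the 10429 genes with at least 50 UMIs were. The median log2 ratio of 6PGDKO to WT was -0.03 over the members and 0.06 over all genes. The catalytic subunit barely differed, since Cybb had 6798 UMIs in WT and 7540 in 6PGDKO, for a log2 ratio of -0.03 (-0.08 to 0.02). Its membrane partner was lower: Cyba went from 1439 to 1207 CPM, a log2 ratio of -0.25 (-0.29 to -0.22).

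Among the cytosolic subunits the directions differed. Ncf4 was lower, at 176 CPM in WT and 147 CPM in 6PGDKO, for a log2 ratio of -0.27 (-0.37 to -0.17). Ncf1 was slightly higher, at 129 and 144 CPM, for a log2 ratio of 0.16 (0.05 to 0.27). Rac2 was higher by the most, at 187 and 239 CPM, for a log2 ratio of 0.35 (0.26 to 0.44). So the oxidase genes did not move as a block in macrophages, and 4 of the 5 had an interval away from 0, 2 above it and 2 below. The share of all genes with such an interval was not computed, so this count gives directions only.

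T cell markers moved with the genotype in these cells. The 9 T cell markers, among them Cd3d, Cd3e and Trac, summed to 656 CPM in WT and 963 CPM in 6PGDKO macrophages, none of them at 0, against 5400 and 5422 CPM in T cells, the class in which Rac2 is high. Leaving out macrophages with any UMI of a set of T or B cell genes kept 414 WT and 351 6PGDKO cells. There Rac2 stood at 114 and 140 CPM, lower in both genotypes than over all macrophages, and its log2 ratio was 0.30 (0.12 to 0.48). In the same cells the log2 ratio was -0.20 for Cyba (-0.25 to -0.15), -0.35 for Ncf4 (-0.51 to -0.19), 0.09 for Ncf1 (-0.06 to 0.25) and 0.06 for Cybb (-0.01 to 0.12). The directions of Cyba, Ncf4 and Rac2 were also present in macrophages with no counted UMI of this gene set. The interval of Ncf1 then took in 0. Such cells can still hold other lymphocyte RNA, and the amount left in them was not measured.

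The 3 macrophage clusters mostly showed the same directions. In cluster 0, the largest, led by Vcam1, Apoe and C1q genes, the log2 ratio was -0.21 for Cyba, -0.21 for Ncf4 and 0.31 for Rac2. In cluster 10, led by immunoglobulin genes and Ccl8, these were -0.31, -0.34 (-0.82 to 0.14) and 0.53. In cluster 12, led by histone and cell cycle genes, they were -0.31, -0.53 and 0.35. T cell markers stood at 1956 and 2243 CPM in cluster 10, against 542 and 790 CPM in cluster 0. Cybb was the gene that split, with 0.03 (-0.02 to 0.09) in cluster 0, 0.18 (-0.10 to 0.47) in cluster 10 and -0.37 (-0.51 to -0.22) in cluster 12. In cluster 12 Cybb stood at 581 CPM in WT and 451 CPM in 6PGDKO, while the T cell markers stood at 743 and 1288 CPM and the macrophage markers at 21423 and 17096 CPM. The part of these shifts in the Cybb value was not tested. At a clustering resolution of 1.6 in place of 0.8, a macrophage cluster of 200 WT and 165 6PGDKO cells, whose T cell markers stood at 207 and 161 CPM, had a Rac2 log2 ratio of -0.01 (-0.22 to 0.20) and a Cybb log2 ratio of 0.18 (0.09 to 0.26). A larger cluster of 290 and 243 cells, with T cell markers at 231 and 298 CPM, had a Rac2 log2 ratio of 0.33 (0.15 to 0.51). In a cluster of 57 and 54 cells, with T cell markers at 215 and 153 CPM, the ratio was 0.46 (-0.13 to 1.06). In a cluster of 69 and 81 cells led by cell cycle genes it was 0.35 (0.14 to 0.57). T cell markers stood there at 749 and 1296 CPM. An unnamed cluster closest to macrophages had 79 WT and 136 6PGDKO cells, with T cell markers at 2246 and 2134 CPM. Rac2 stood at 337 and 350 CPM in that cluster, a log2 ratio of 0.05 (-0.12 to 0.23). In another such cluster of 37 and 49 cells, with T cell markers at 3765 and 3808 CPM, the ratio was 0.39 (0.05 to 0.73). The Rac2 interval thus lay above 0 in some of these finer groups and took in 0 in others.

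Monocytes differed from macrophages in which subunits were lower. In the 130 WT and 335 6PGDKO cells, none of the 5 genes passed 1.5-fold, as against 12.1% of 7308 genes. Cybb had a log2 ratio of -0.32 (-0.44 to -0.20), with 640 and 512 CPM. Ncf1 came closest to the fold limit with -0.57 (-0.83 to -0.31), from 137 CPM (118 to 159) to 92.7 CPM (83.5 to 103). Cyba, Ncf4 and Rac2 had 1273 and 1278, 172 and 177, and 231 and 232 CPM, each with an interval of the ratio around 0.

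The monocyte values rested on which cells were taken. T cell markers summed to 510 CPM in WT and 953 CPM in 6PGDKO monocytes, none of them at 0. In the 74 WT and 171 6PGDKO monocytes without lymphocyte UMIs, Cybb stood at 688 and 693 CPM, a log2 ratio of 0.01 (-0.15 to 0.18), so the lower level was no longer there. Ncf1 kept its direction with 138 and 113 CPM, but the interval of the log2 ratio, -0.68 to 0.10, took in 0. Rac2 was then lower in 6PGDKO, with 188 and 142 CPM and a log2 ratio of -0.41 (-0.74 to -0.07).

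With finer clustering the monocytes fell into 2 groups that differed in Cybb itself. The smaller group, 26 WT and 52 6PGDKO cells led by Chil3 and by Ace and Adgre4, which are genes of patrolling monocytes, had 1246 and 1177 CPM of Cybb, more than macrophages as a whole. The larger group, 106 and 280 cells led by Ly6i and by the DC markers Cd209a and Ccl17, had 547 and 465 CPM. Within the smaller group the log2 ratio of Cybb was -0.08 (-0.33 to 0.17), and within the larger it was -0.23 (-0.36 to -0.10). Ncf1 had a log2 ratio of -0.53 (-0.80 to -0.26) in the larger group and of -0.51 (-1.38 to 0.39) in the smaller. Ncf4 had 21 and 74 UMIs in the smaller group, or 121 and 232 CPM, for a log2 ratio of 0.95 (0.23 to 1.72). That group had fewer cells in WT than the limit set for comparing classes. Its share of all genes past 1.5-fold was not computed, so Ncf4 is not called there. In the larger group Ncf4 had -0.05 (-0.28 to 0.18).

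**Figure D3:**
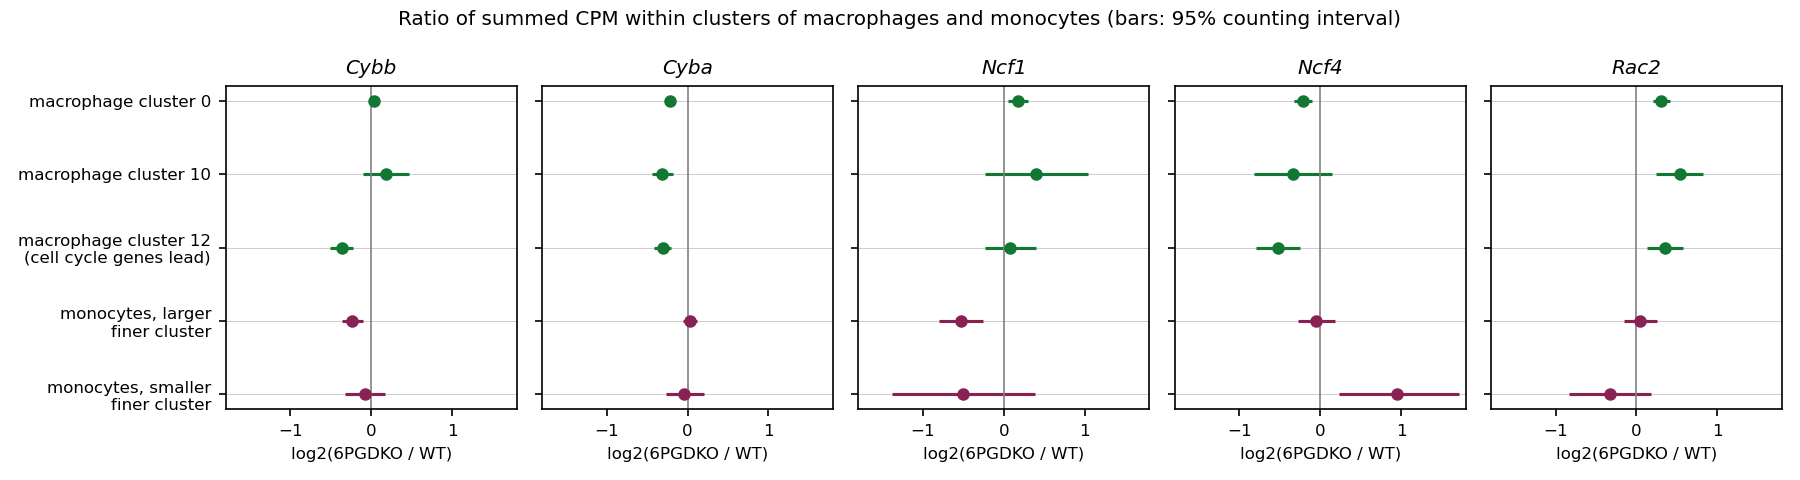
Log2 ratio of 6PGDKO to WT (horizontal axis) of each subunit gene in 3 macrophage clusters and in the 2 monocyte groups of the finer clustering, with 95% counting intervals. Rac2 lies right of 0 and Cyba left of 0 in all 3 macrophage clusters, and Cybb is at -0.37 in the cluster led by cell cycle genes.

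In neutrophils, which express LysM-Cre and use NOX2 most, transcripts were few. The 58 WT and 72 6PGDKO cells had median depths of 2244 and 2113 UMIs per cell, and hemoglobin genes stood among the leading genes of the cluster. Ncf4 was the only member past 1.5-fold, with 48 UMIs in WT and 32 in 6PGDKO, or 330 and 186 CPM, for a log2 ratio of -0.83 (-1.52 to -0.15). In this shallow class 32.5% of 891 genes were past 1.5-fold, so 1 member of the 4 with enough UMIs is near that share. Thinning to 2000 UMIs left out 22 WT and 28 6PGDKO neutrophils that were too shallow. In the 36 and 44 that remained, the log2 ratio of Ncf4 was -0.10 and no longer past the limit. Over all neutrophils, Cyba, Ncf1 and Rac2 had log2 ratios of -0.21, -0.37 and -0.28, each with an interval that took in 0. The T cell markers were lower in 6PGDKO here, from 831 CPM in WT to 377 CPM in 6PGDKO. The 8 B cell markers stood at 384 CPM in WT, with 1 at 0, and at 17.4 CPM in 6PGDKO, with 5 at 0, and their part in these values was not tested.

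Migratory DCs and the unnamed cluster 8 differed mainly in Rac2. In 59 WT and 84 6PGDKO migratory DCs, the Ccr7-bearing DCs that home to lymph nodes, Rac2 had 79.1 and 119 CPM, a log2 ratio of 0.59 (0.15 to 1.04) and just past 1.5-fold, as were 12.2% of 4166 genes. The T cell markers stood at 892 and 880 CPM in them. Without the 21 WT and 41 6PGDKO cells that held lymphocyte UMIs, the log2 ratio of Rac2 was -1.61, so the direction turned. All migratory DCs together had only 62 and 146 Rac2 UMIs, in 16 and 31 cells, so both values rest on few transcripts. In cluster 8, Rac2 was lower, with 80.6 and 44.7 CPM and a log2 ratio of -0.85 (-1.28 to -0.43), the only member there past 1.5-fold beside 9.35% of 5927 genes. T cell markers moved in the same direction in cluster 8, from 486 to 310 CPM. Without the cells that held lymphocyte UMIs, the log2 ratio of Rac2 was -0.43, no longer past 1.5-fold, and that of Cyba was 0.95, past it, while thinned cells gave -1.70 for Rac2. Cybb had 73.6 and 99.9 CPM in cluster 8, a log2 ratio of 0.44 (0.08 to 0.81), which turned to -0.09 with thinned cells. Type 1 conventional DCs had only 40 WT cells and were not compared, and they held 6 WT and 33 6PGDKO UMIs of Cybb.

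**Figure D4:**
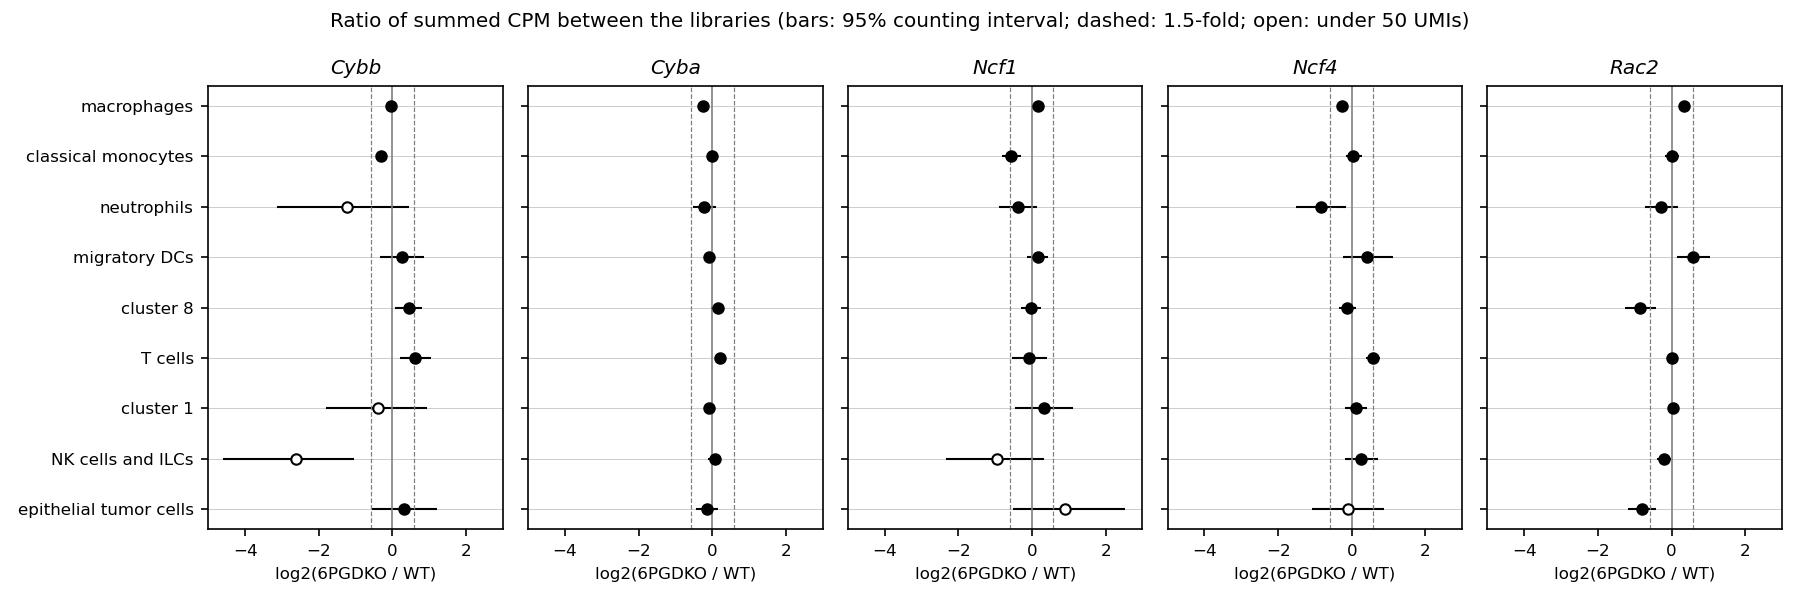
Log2 ratio of 6PGDKO to WT (horizontal axis) of each subunit gene in 9 classes, with 95% counting intervals, dashed lines at 1.5-fold and open points for genes under 50 UMIs. All 5 genes lie inside the dashed lines in macrophages and monocytes, and Rac2 ranges from -0.85 in cluster 8 to 0.59 in migratory DCs.

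Among classes that do not express LysM-Cre, Rac2 hardly differed in T cells, with a log2 ratio of 0.01 (-0.05 to 0.08), and in cluster 1, with 0.03 (-0.07 to 0.13). Cybb was the only member past 1.5-fold in T cells, with 88 and 102 UMIs and a log2 ratio of 0.62 (0.20 to 1.05), beside 10.9% of 9422 genes. The call was lost with no cell filter, at 0.17, with equal weight per cell, at 0.12, and as a mean over the 6 T cell clusters, at -0.12. Macrophage markers stood at 384 and 611 CPM in T cells, and their part in the result was not tested. The Cybb level was 12.8 and 19.7 CPM, below that of epithelial tumor cells, and is read as background. Ncf4 and Cyba were higher in 6PGDKO T cells, with log2 ratios of 0.57 (0.38 to 0.76) and 0.21 (0.15 to 0.28). As a mean over the clusters these log2 ratios were 0.065 and -0.10. The make-up of the class differed. A T cell cluster led by Lef1, Dapl1 and Tcf7, genes of naive T cells, had 473 WT and 55 6PGDKO cells. Ncf4 stood at only 19.9 and 8.95 CPM in that cluster, from 44 and 2 UMIs. In the T cell cluster led by Foxp3, Tnfrsf4 and Areg, Ncf4 stood at 108 and 109 CPM. In cluster 1 no member passed 1.5-fold beside 5.23% of 6521 genes. In NK cells and ILCs none of the 3 members with enough UMIs did, beside 9.32% of 3456 genes, and Rac2 had a log2 ratio of -0.21 (-0.41 to -0.02). In epithelial tumor cells Rac2 was past 1.5-fold, at 149 and 84.5 CPM with a log2 ratio of -0.81 (-1.20 to -0.43), beside 14.7% of 5310 genes, while T cell markers stood at 1074 and 708 CPM there. At resolution 1.6 it was -0.56, inside the limit, and with thinned cells -1.70.

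Over all kept cells the log2 ratio was 0.20 (0.15 to 0.24) for Cybb, 0.30 (0.22 to 0.38) for Ncf1 and -0.24 (-0.28 to -0.19) for Rac2. The numbers of B cells, T cells and monocytes also differed between the libraries, so level and composition cannot be told apart in these sums.

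How many subunits a single cell showed was counted after each cell was thinned at random to 2000 UMIs, since deeper cells show more genes. In macrophages 22 WT and 27 6PGDKO cells were too shallow, and of the others 43.7% (40.0% to 47.4%) in WT and 45.1% (41.3% to 48.8%) in 6PGDKO held a UMI of 3 or more of the 5 genes. Without thinning the shares were 89.0% and 91.3%. In monocytes the thinned shares were 49.2% (40.3% to 58.2%) and 37.1% (31.8% to 42.6%), and the intervals overlapped. In epithelial tumor cells no WT cell of 64 had 3 or more, which allows a share of up to 4.69%, and 1.18% of 6PGDKO cells had. A UMI of all 5 genes was found in 4 macrophages of each library.

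A Cybb UMI was present in 69.4% (65.9% to 72.8%) of thinned WT macrophages and in 68.1% (64.5% to 71.6%) of 6PGDKO macrophages. In monocytes these were 67.2% (58.3% to 75.2%) and 54.2% (48.6% to 59.8%). The background, taken from epithelial tumor cells, was 3.13% and 1.18%, and T cells lay at 1.69% and 2.06%, with median depths of 8158 and 9603 UMIs before thinning in the first and 4533 and 4795 in the second. WT B cells, at 32.1% (28.2% to 36.1%), stood far above both. Only 36 of 58 WT and 44 of 72 6PGDKO neutrophils were deep enough to be thinned. Of these, 11.1% (3.11% to 26.1%) and 6.82% (1.43% to 18.7%) had a Cybb UMI. Their intervals overlapped the epithelial background, so Cybb was not detectable above it there at this depth. In contrast 88.9% and 90.9% of these neutrophils had a Cyba UMI and 52.8% and 43.2% an Ncf1 UMI.

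Within thinned macrophages the share of cells with another subunit was set beside the presence of a Cybb UMI. Without thinning, 93.5% of WT and 92.8% of 6PGDKO macrophages had a Cybb UMI. Many thinned cells without a Cybb UMI therefore held Cybb before thinning, and the shares cannot show whether the subunits occur together. Of WT macrophages with a Cybb UMI 21.9% (18.3% to 25.8%) also had Ncf1, against 16.5% (11.8% to 22.1%) of those without. For Ncf4 the shares were 27.3% and 28.9%, and for Rac2 26.5% and 30.7%. In 6PGDKO macrophages Rac2 was found in 31.6% (27.4% to 36.0%) of cells with and 39.2% (32.7% to 45.9%) of cells without a Cybb UMI. The intervals overlapped in each of these pairs.

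**Figure D5:**
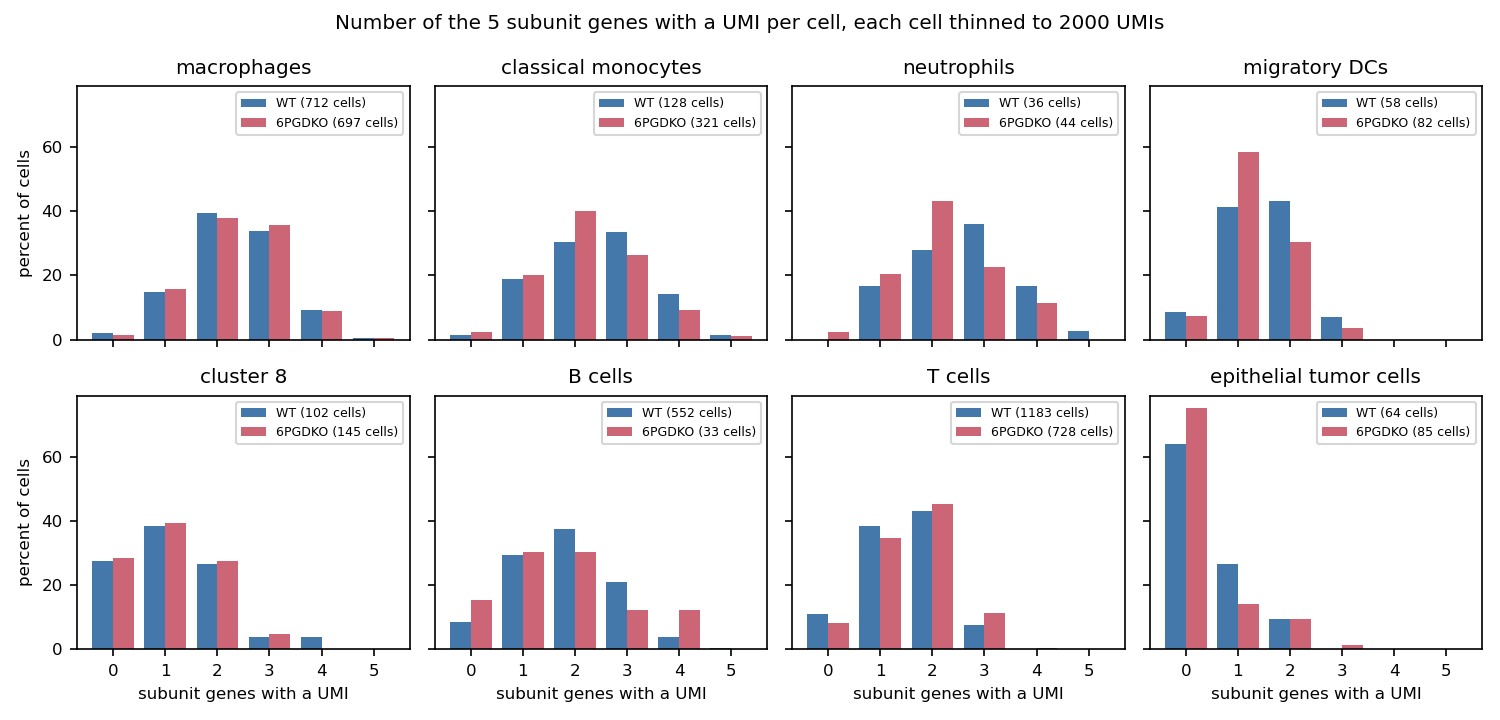
Percent of cells (vertical axis) by the number of the 5 subunit genes with a UMI (horizontal axis), each cell thinned to 2000 UMIs, in 8 classes and both libraries. Macrophages hold 3 or more genes in 43.7% of WT and 45.1% of 6PGDKO cells, while most epithelial tumor cells hold none.

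The other genes of the pathway, 48 listed by role of which 47 were in the files, were compared in the same way. Of 34 with at least 50 UMIs in macrophages, none was 1.5-fold higher and 1 was lower, beside 7.65% of all genes past that limit. The lower one was Pgd, the deleted gene, with a log2 ratio of -1.77 (-1.96 to -1.59). Their median log2 ratio was 0.01. Among the enzymes that supply NADPH in the cytosol, G6pdx, the first enzyme of the pentose phosphate pathway, had 24.5 and 28.1 CPM and a log2 ratio of 0.20 (-0.06 to 0.46). Pgls, the lactonase between it and 6PGD, had 149 and 157 CPM. Idh1, the cytosolic isocitrate dehydrogenase, had 16.0 and 22.0 CPM and a log2 ratio of 0.46 (0.15 to 0.77), and Me1, the cytosolic malic enzyme, had 2 and 7 UMIs. Rac1 had a log2 ratio of 0.12 (0.05 to 0.20), the direction of Rac2.

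In monocytes 34 of the listed genes had enough UMIs, none was 1.5-fold higher and 2 were lower, beside 12.1% of all genes past the limit. They were Pgd, with -1.36 (-1.75 to -0.96), and Prkcb, a protein kinase C that phosphorylates p47phox, with 81.7 and 42.2 CPM and a log2 ratio of -0.95 (-1.31 to -0.59). The 8 B cell markers, none at 0, moved in the same direction in these monocytes, from 69.8 to 18.1 CPM, and their part in the Prkcb value was not tested. G6pdx had 34.9 and 27.9 CPM, Pgls 215 and 192 CPM and Idh1 14.9 and 17.6 CPM, each with an interval of the ratio around 0. None of the 7 genes of other NADPH oxidases and their organizers, such as Nox1, Nox4 and Duox1, had 50 UMIs in any compared class. Nrros, whose protein lowers the amount of gp91phox, was lower in 6PGDKO macrophages at 118 and 83.9 CPM, a log2 ratio of -0.49 (-0.63 to -0.36), a gene named here after its value was seen.

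Across the 9 compared classes in both libraries, 18 points that share their libraries, the members differed from each other in pattern. On log2(CPM + 5), Pearson's r between members ran from -0.40 for Cybb with Rac2 to 0.60 for Cybb with Ncf1. Of 5176 genes with at least 50 CPM in some class, those most like Cybb were Hexa, Slc35f6, Ctss, Slc29a3 and Fcgr2b, with r from 0.95 to 0.96. Ncf1 was most like Gngt2, Bcl2a1a, Spi1, Pira2 and Cd80, with r from 0.95 to 0.98. The closest to Cyba was Capzb with 0.96, followed by Arpc2, Il4ra, Myo9b and Tspan13. Ncf4 was most like Inpp5d with 0.96, then Vav1, Ptpn6, Slc16a6 and Myo1f. Rac2 was most like Stk10, Emb, Tmem71, Rhoh and Usp3, with r from 0.93 to 0.95. No member was among the 5 genes most like another member.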

How the data were processed

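The study deposited, for each of 2 libraries, a matrix of raw UMI counts per gene and barcode, which per the labels the authors made with Cell Ranger 6.1.2 on mm10. Reads were not used. The 12 multiplexing oligos listed with the genes were left out. Barcodes outside 500 to 7500 genes or above 15% mitochondrial UMIs were dropped. Both libraries were log-normalised together, and 1991 of 2000 variable genes, without members and related genes, gave 30 principal components, clustered by Louvain with 20 neighbours at resolution 0.8 (Seurat 5.3.0, R 4.3.3). A cluster was named by the marker list with the widest margin of detection, and left unnamed where under 3 markers were found in 25% of cells, where another list led its top 10 genes, or where its cells were shallow. These limits were set after the data were seen, and names rebuilt here may differ from the study's. No doublet caller was run.

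UMIs were summed per class and library, scaled to CPM and compared as a log2 ratio with exact conditional 95% intervals. Intervals of levels are Poisson intervals, and those of shares are Clopper-Pearson intervals, all exact (scipy 1.17.1). Classes needed 50 cells per library and genes 50 UMIs, and past 1.5-fold is called. A count of 0 allows 3 cells of the total. With 1 library per genotype there is no test. Free RNA and the difference in depth between libraries can shift low values. The members and gene lists were chosen with earlier results of these data known. All members in every class were to be named, and of related genes those past 1.5-fold with an interval without 0 in macrophages or monocytes, those supplying NADPH, and Rac1. For each member the 5 genes with the highest correlation were also named. Intervals and ratios were tested on simulated independent Poisson counts. These have no spread between cells or mice, so the test checks the computation and not how well the intervals cover real data. Alternatives were no cell filter, resolution 1.6, all variable genes, equal weight per cell, thinned cells, cells without lymphocyte UMIs, a median ratio of 0 and a mean over clusters.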

Additional observations from a re-analysis of the deposited data

Results flagged for a closer look

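Some subunit genes had log2 ratios of 6PGDKO to WT of opposite sign in 2 cell classes, both with counting intervals away from 0. With 1 library per genotype the differences between classes were not tested. For Rac2, the ratio in macrophages minus that in cluster 8 was 1.20, minus that in NK cells and ILCs 0.56, and minus that in epithelial tumor cells 1.16. Taken from migratory DCs, the same 3 differences for Rac2 were 1.44, 0.80 and 1.40. For Ncf1, macrophages minus monocytes gave 0.73. For Ncf4, macrophages minus T cells gave -0.84 and neutrophils minus T cells gave -1.40. For Cyba, macrophages minus T cells gave -0.47. For Cybb, monocytes minus cluster 8 gave -0.76 and monocytes minus T cells gave -0.94, the T cell level being read as background. Several of these directions did not hold under the alternatives given next. Rac2 in migratory DCs, Cybb in monocytes and in cluster 8, and Cybb and Cyba in T cells each turned under 1 alternative. Ncf4 came to 0.065 in T cells as a mean over clusters and to -0.097 in neutrophils with thinned cells.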

How the results depend on the processing

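The 5 macrophage log2 ratios were recomputed under 8 alternatives, and 32 of 40 values stayed within the main counting interval. Cybb moved to 0.021 with no cell filter, 0.036 with thinned cells, 0.058 without cells holding lymphocyte UMIs, 0.052 with equal weight per cell and -0.094 with the median ratio of all genes set to 0. Cyba moved to -0.20 without cells holding lymphocyte UMIs and to -0.32 with the median set to 0, and Ncf1 to 0.34 with thinned cells. In the other classes 185 values stayed, 26 moved and 5 turned direction. These were Cybb in monocytes (0.011) and Rac2 in migratory DCs (-1.61) without cells holding lymphocyte UMIs, Cybb in cluster 8 (-0.092) with thinned cells, and Cybb (-0.12) and Cyba (-0.10) in T cells as a mean over clusters. Ncf4 in neutrophils was -0.097 with thinned cells. The cause was not tested. No paired analysis was possible because each genotype has 1 library. Neutrophils were the shallowest class compared, and their Cybb values rest on 10 and 5 UMIs.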
